A study of Mus musculus with 6 samples.

Results

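The 34 genes described here are genes of astrocytes and Bergmann glia: glutamate transporters, water and ion channels, gap junction proteins, intermediate filaments, metabolic enzymes, receptors and secreted proteins, transcriptional regulators and metallothioneins. The members were given as a list of symbols of genes that mark these cells. All 34 were found among the 55341 gene symbols counted in each library, and 33 of them passed the filter on low counts that left 16343 genes for testing. The exception was Cldn10, a claudin found in astrocytes, with counts of 5, 1 and 4 under DMSO and of 6, 0 and 1 under GSK-126 in replicates 1, 2 and 3. A count of 0 allows a level of up to 0.358 CPM (counts divided by library size and scaled) in that library.

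The libraries were made from poly(A) RNA of cultured cerebellar granule neurons (CGNs) of mice, 3 of which had received DMSO as vehicle and 3 GSK-126, an inhibitor of EZH2, the methyltransferase that places trimethylation on lysine 27 of histone H3. In the study's methods, granule neuron precursors were taken from cerebella of CD1-IGS mouse pups, separated on a Percoll gradient and plated, and cytosine arabinoside was added to stop the division of cells that are not neurons. Both groups shared all of these steps, and a culture replicate was CGNs from the pooled cerebella of litters. Neither dose nor day of treatment stood in the labels, which named CGNs in the titles and cerebellum as the tissue.

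Astrocytes clear glutamate and potassium from the extracellular space, convert glutamate to glutamine, and are joined to each other by gap junctions. Bergmann glia are the astrocytes of the cerebellar Purkinje cell layer, and granule neurons migrate along their fibers in the developing cerebellum. A granule neuron culture therefore starts from a tissue that holds these cells, and the Percoll gradient and cytosine arabinoside act against them. The question addressed was how much astroglial RNA each culture held, how much it varied between replicates, and whether it differed under GSK-126. Each library is a mixture of cells, so a lower number of astroglia and less of an RNA per astroglial cell cannot be told apart.

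Library depth was 8058760 to 12047837 counts over genes, and the deepest library was GSK-126 replicate 1. A count of 3 corresponded to 0.249 to 0.372 CPM, and such floors cover counting error only. Libraries with the same replicate number deviated from their group means together, with correlations across genes of 0.351, 0.503 and 0.517 for replicates 1, 2 and 3, whereas the correlations of different numbers ran from -0.411 to -0.0103. The same-number and different-number correlations are not independent, since deviations within a group cancel out. Libraries of one number were treated as a pair, a choice made from these same data. Differences between pairs are given beside differences between groups. All 14 granule neuron markers examined passed the filter, among them Zic1, Cadm3 and Reln, the 3 highest by CPM.

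Astroglial transcripts were detected in every library, and their sum differed more between replicate numbers than between the treatments. The 34 genes took 1.30%, 0.634% and 0.989% of all counts in DMSO replicates 1, 2 and 3, and 1.41%, 0.637% and 0.911% in GSK-126 replicates 1, 2 and 3. Their summed level was 12775, 6371 and 9853 CPM under DMSO and 14076, 6415 and 9166 CPM under GSK-126. Replicate 1 therefore held 2.01 times as much as replicate 2 under DMSO and 2.19 times as much under GSK-126, and replicate 3 lay between them in both groups. The 2 groups overlapped. The 5 genes with the highest CPM held 60.8% of the members' sum under DMSO.

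**Figure D1:**
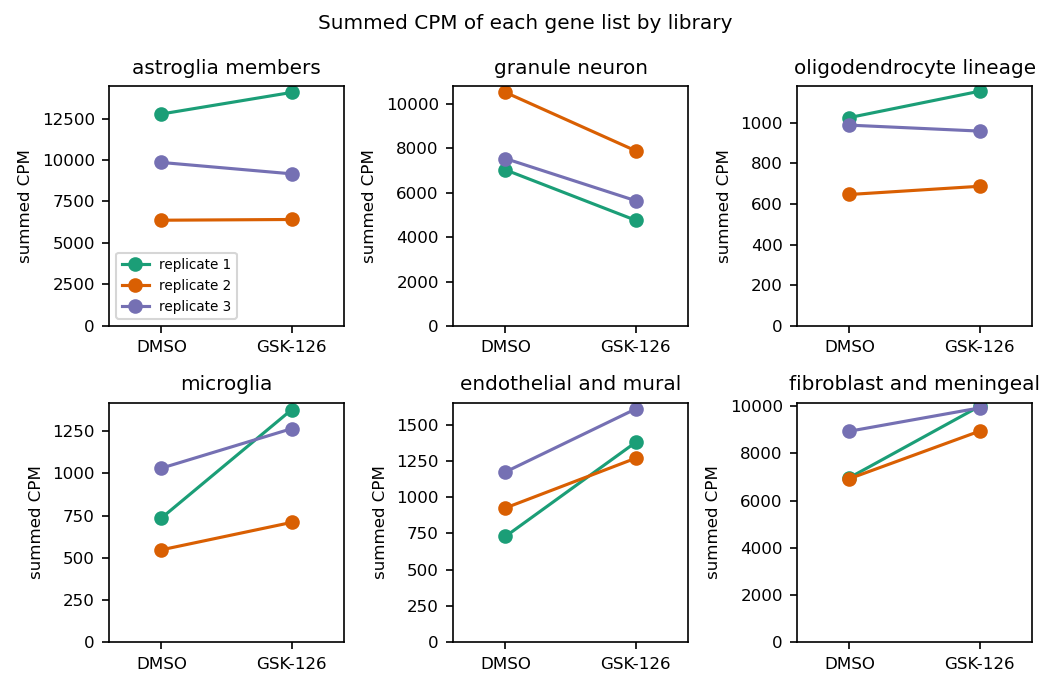
Summed level in CPM (y axis, from 0) of all listed genes, tested or not, in 6 lists for each of the 6 libraries. Lines join the DMSO and GSK-126 libraries of the same replicate number. The sum of the astroglia genes is lowest in replicate 2 of both groups, at 6371 and 6415 CPM, where the sum of the granule neuron markers is highest, at 10522 and 7888 CPM.

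Granule neuron markers had the reverse order of replicates. Their 14 genes summed to 7032, 10522 and 7540 CPM in DMSO replicates 1, 2 and 3, and to 4756, 7888 and 5640 CPM in GSK-126 replicates 1, 2 and 3. Replicate 2 was the highest of its group for 12 of the 14 in both groups, and these sums are plotted beside those of the astroglia genes. The lists move with the same replicate numbers, and the part of the neuronal share in the astroglial levels was not tested.

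Between genes, levels are compared as CPM per kilobase of exon (the RPKM scale), as means over the 3 DMSO libraries. The highest was Fabp7, the fatty acid binding protein of radial and Bergmann glia, at 436. Gfap, the intermediate filament by which astrocytes are commonly recognised, stood at 403, and Vim, the filament of immature and reactive astroglia that fibroblasts and vascular cells also express, at 274. The metallothionein Mt2 had 209, the water channel Aqp4 196, the protease inhibitor Cst3, which microglia also express, 196, and the sodium pump subunit Atp1b2 172. The level of Mt2 is uncertain, since 73.5% of its exon bases lie opposite an antisense gene. The glutamate transporter Slc1a3 (GLAST), which Bergmann glia express strongly, stood at 111, and the forebrain type glutamate transporter Slc1a2 (GLT-1) at 13.8. At the lower end were Gdf10, a growth factor of the BMP family expressed by Bergmann glia, at 1.65, the growth factor receptor Fgfr3 at 1.07, the neurotensin receptor Ntsr2 at 0.404 and Cldn10 at 0.151.

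The spread between replicates of the typical astroglia gene was wider than that of the typical gene. Over the 33 members tested, the median SD of log2 CPM between replicates was 0.477 under DMSO and 0.649 under GSK-126, beside 0.255 and 0.251 over all genes tested. In the fit with treatment and replicate number (edgeR's quasi-likelihood F test, Benjamini-Hochberg over all genes tested), 24 of 33 members differed between replicate numbers at an adjusted p under 0.05, or 72.7%, beside 11.6% of all genes tested. Replicate 2 was the lowest in both groups for 24 members (72.7%, beside 21.2% of all genes), and replicate 1 was the highest in both for 21 (63.6%, beside 15%). The median log2 difference of replicate 2 against replicate 1 was -1.0, of replicate 3 against replicate 1 -0.48 and of replicate 3 against replicate 2 0.66. Over all genes the first of these medians was 0.01. Some other cell types differed between replicate numbers as well. Called were 11 of 13 microglia markers (84.6%), 9 of 16 oligodendrocyte lineage genes (56.3%) and 9 of 14 granule neuron markers (64.3%). Replicate 2 was the lowest in both groups for 9, 7 and 0 of these. Fibroblast and meningeal markers had 5 of 9 called (55.6%) and endothelial and mural markers 3 of 12 (25%). Of 22 cell cycle genes 2 were called (9.09%), and of 11 cerebellar GABAergic neuron genes 0. Without GSK-126 replicate 2 the count of members called fell to 14, and leaving out any other single library gave 20 to 29.

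**Figure D2:**
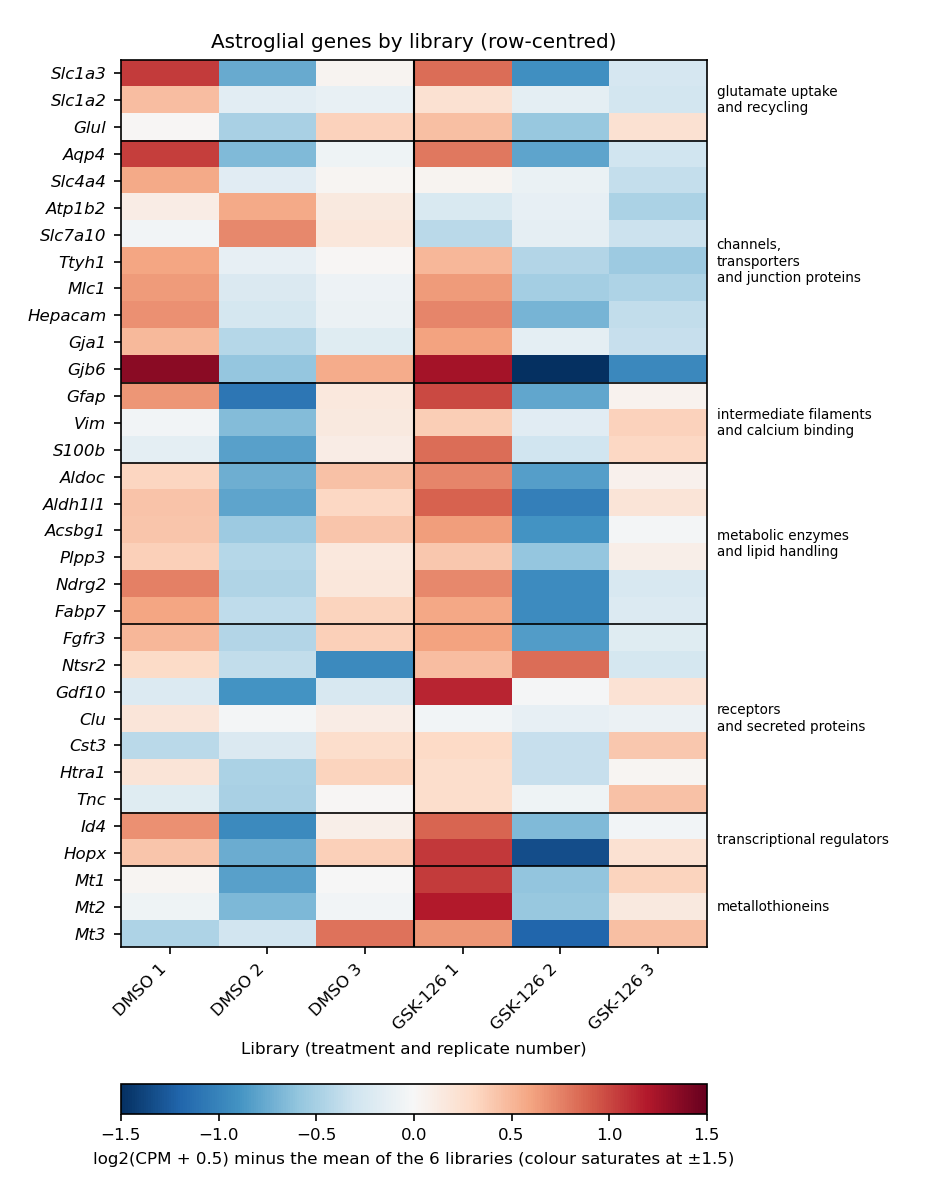
Heat map of the 33 genes that passed the filter (rows, grouped by role) in the 6 libraries (columns), coloured by log2(CPM + 0.5) minus the mean of the row. The columns of replicate 2 are the lowest of their group for most rows, and Atp1b2 and Slc7a10 are among the exceptions.

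The 3 genes of glutamate uptake and recycling were among those that differed between replicates. Slc1a3 stood at 1599, 455 and 795 CPM in DMSO replicates 1, 2 and 3, and at 1375, 406 and 645 CPM in GSK-126 replicates 1, 2 and 3. Both groups held their highest value in replicate 1 and their lowest in replicate 2, and the log2 difference of replicate 2 against replicate 1 was -1.79 ± 0.121 (SE, edgeR adjusted p for the replicate number 2.71e-05). Glul, the glutamine synthetase that recycles the glutamate taken up, had 236, 166 and 296 CPM under DMSO and 320, 157 and 273 CPM under GSK-126 (edgeR adjusted p 0.00862). Slc1a2 stood at 235, 153 and 157 CPM under DMSO and at 201, 155 and 140 CPM under GSK-126 (edgeR adjusted p 0.0244). Slc1a3 and Slc1a2 were highest in replicate 1 in both groups, and Glul was highest in replicate 3 under DMSO.

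Aqp4, the water channel of astrocyte endfeet, had the highest level of the channels and transporters on the RPKM scale. It stood at 2071, 637 and 964 CPM under DMSO and at 1739, 580 and 820 CPM under GSK-126, with replicate 2 against replicate 1 at -1.64 ± 0.119 on the log2 scale (edgeR adjusted p 3.68e-05). The gap junction proteins were also highest in replicate 1 in both groups. Gja1 (connexin 43) had 348, 185 and 219 CPM under DMSO and 377, 225 and 195 CPM under GSK-126, and Gjb6 (connexin 30), a gene of mature astrocytes, had 10.0, 2.24 and 5.54 CPM under DMSO and 9.22, 0.841 and 1.59 CPM under GSK-126. Gjb6 showed the widest difference of any member, -2.78 ± 0.493 for replicate 2 against replicate 1 (edgeR adjusted p 0.00756), at low counts. Mlc1 and Hepacam, membrane proteins that work together in astrocyte junctions, and Ttyh1, a chloride channel family protein, were also called. Of the 9 tested channels, transporters and junction proteins 6 differed between replicate numbers, and the bicarbonate transporter Slc4a4, Atp1b2 and the amino acid exchanger Slc7a10 did not pass (edgeR adjusted p 0.0934, 0.146 and 0.389). The last 2 of these were highest in replicate 2 in both groups.

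The filament and calcium binding genes, the metabolic enzymes and the transcriptional regulators all differed between replicate numbers, 3 of 3, 6 of 6 and 2 of 2. Gfap stood at 2545, 758 and 1798 CPM under DMSO and at 3182, 933 and 1661 CPM under GSK-126, and replicate 2 lay -1.76 ± 0.139 from replicate 1 on the log2 scale (edgeR adjusted p 8.9e-05). Among the enzymes, Aldh1l1, the folate enzyme used as a pan-astrocyte marker, had 252, 108 and 232 CPM under DMSO and 347, 91.4 and 214 CPM under GSK-126. Replicate 2 was the lowest of its group for all 6 enzymes and lipid handling genes in both groups, a set that also holds the glycolytic enzyme Aldoc, the acyl-CoA synthetase Acsbg1, the lipid phosphatase Plpp3, Ndrg2 and Fabp7. Hopx, a homeodomain protein of Bergmann glia and radial glia, had -1.79 ± 0.236 for replicate 2 against replicate 1, and the helix-loop-helix inhibitor Id4 had -1.59 ± 0.154 (edgeR adjusted p 0.00184 and 0.000274). Of the exon bases of Hopx 27.2% lie opposite exons of the antisense gene Hopxos, of Fgfr3 13.9% and of Aldh1l1 11.0% opposite other genes, and their values are uncertain for the reason given for Slc7a10 in the comparison of treatments.

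Of the receptors and secreted proteins 2 of 7 were called, the serine protease Htra1 and the matrix protein Tnc. Clu (clusterin), a secreted chaperone, varied least of all the members under DMSO, at 99.2, 85.3 and 94.3 CPM, and stood at 85.0, 80.1 and 81.9 CPM under GSK-126 (edgeR adjusted p for the replicate number 0.733). Fgfr3, Gdf10, Cst3 and Ntsr2 did not pass either (edgeR adjusted p 0.0616, 0.0808, 0.0957 and 0.341). Of the metallothioneins, which bind zinc and copper, Mt1 and Mt2 were called and Mt3, the form enriched in brain, was not (edgeR adjusted p 0.0952).

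**Figure D3:**
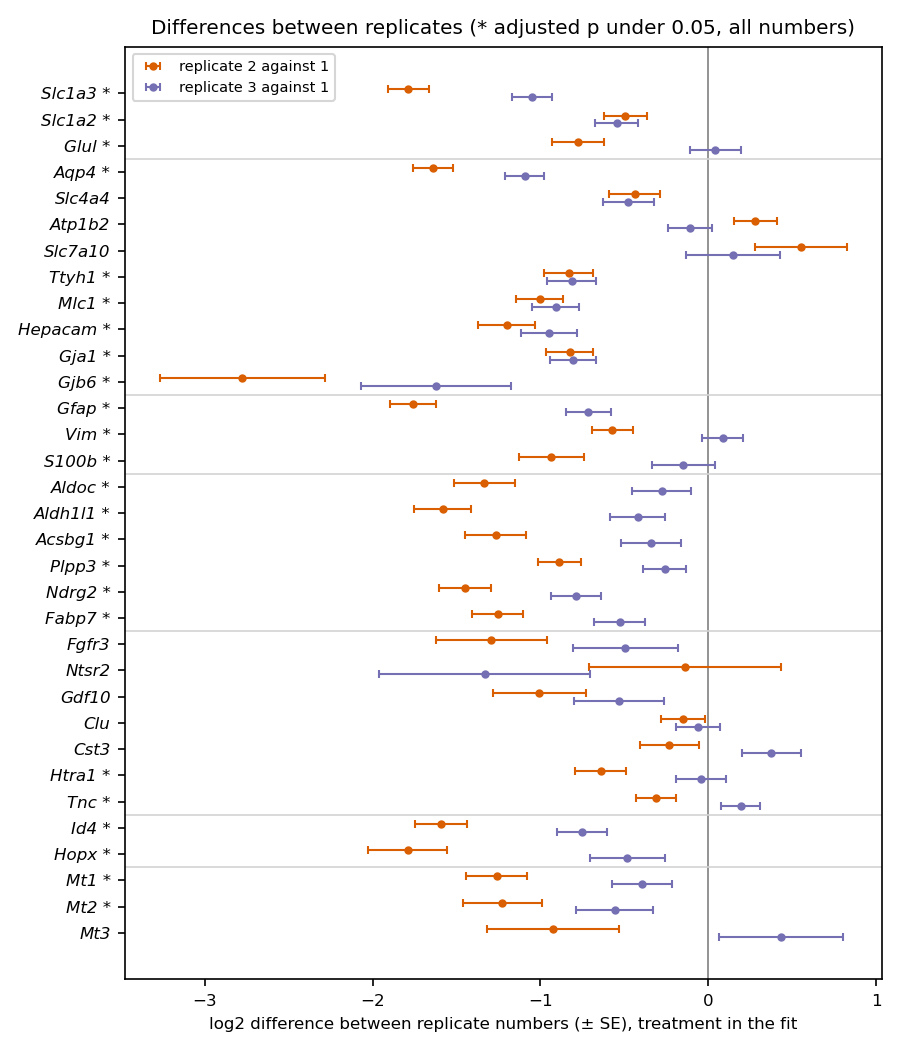
Log2 difference (x axis, ± SE of the fit) of replicate 2 and of replicate 3 against replicate 1 for the 33 genes tested, with treatment in the fit and genes ordered by role. The points for replicate 2 lie left of 0 for 31 of 33 genes, and an asterisk marks the 24 genes with an adjusted p under 0.05.

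GSK-126 was compared with DMSO in 2 fits across all genes. With treatment as the only term, 0 of 33 members were higher and 0 were lower at an adjusted p under 0.05 (edgeR quasi-likelihood F test), beside 0% of all genes in each direction. At an unadjusted p under 0.05 there were 3 members, Atp1b2, Slc7a10 and Gdf10, and 981 genes in all (6.0%). DESeq2 with the same term called 0 members. With the replicate number added as a block, 2 members rose, Gdf10 and Tnc, beside 2.23% of all genes, and 1 fell, Atp1b2, beside 1.42%. The biological coefficient of variation was 0.243 with treatment alone and 0.142 with the block.

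As a group the astroglia genes showed little shift under GSK-126. The median log2 fold change over the 33 members was -0.04, beside -0.00 over all genes tested, and the medians of the 3 pairs were 0.12, -0.13 and -0.20 for replicates 1, 2 and 3. The pairs thus differed in sign. Of the members, 7 were higher in all 3 pairs (21.2%, beside 19.7% of all genes) and 9 were lower in all 3 (27.3%, beside 19.3%). The CPM of the groups did not overlap for 4 members. Gdf10 was the one higher under GSK-126, where 5.43% of all genes lay apart in that direction, and Atp1b2, Slc7a10 and Clu were lower, beside 5.44%. The median moved to 0.15 without DMSO replicate 1 and to -0.22 without DMSO replicate 2. It moved to -0.39 without GSK-126 replicate 1 and to 0.19 without GSK-126 replicate 2. These fits had treatment as the only term and left 1 library without its partner, so differences between replicates enter them. With the block and without both libraries of number 1, 2 or 3, the median was -0.16, -0.008 and 0.06, values that also differed in sign.

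Atp1b2 encodes the beta-2 subunit of the sodium-potassium pump, also known as the adhesion molecule on glia, which granule neurons express as well. It lies at chr11:69599736-69605942 on the minus strand of GRCm38 and stood at 621, 850 and 634 CPM under DMSO and at 489, 528 and 414 CPM under GSK-126. Each GSK-126 library was below every DMSO library. The difference on the log2 scale was -0.56 ± 0.177 (SE of the fit, edgeR adjusted p 0.806) with treatment alone and -0.55 ± 0.105 (edgeR adjusted p 0.0171) with the block. Its order of replicates under DMSO was that of the granule neuron sum, with replicate 2 highest. Under GSK-126 replicate 2 was again the highest for both, but the lowest was replicate 3 for Atp1b2 and replicate 1 for the granule neuron sum. With the block, the call held without both libraries of number 1 (adjusted p 0.00212) and was lost without those of number 2 (0.181) or of number 3 (0.114).

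Of the 9 channels, transporters and junction proteins tested, 5 were below their DMSO partner in each of the 3 pairs, beside 19.3% of all genes. The median over the 9 was -0.28 with the block, and Atp1b2 was the only one that passed. Slc7a10, an exchanger of small neutral amino acids including D-serine, stood at 8.97, 15.6 and 10.5 CPM under DMSO and at 6.89, 8.41 and 7.27 CPM under GSK-126, at -0.63 ± 0.273 on the log2 scale (edgeR adjusted p 0.825). The groups did not overlap, at low levels, and 17.9% of the exon bases of Slc7a10 lie opposite exons of Lrp3 on the other strand. Lrp3 held 887, 1499 and 1070 counts under DMSO and 1198, 1172 and 965 under GSK-126, and since the sources used here do not give the strand setting used in counting, the value of Slc7a10 is uncertain. For Aqp4 the log2 fold change was -0.23 ± 0.496, for Slc4a4 -0.30 ± 0.209 and for Ttyh1 -0.28 ± 0.302 (edgeR adjusted p 0.951, 0.841 and 0.894). Aqp4 was lower in each of the 3 pairs, by -0.25, -0.13 and -0.23 on the log2 scale, which is small beside the difference between replicates. Gja1 was the one gene of this role with a positive fold change, 0.09 ± 0.302 (edgeR adjusted p 0.975).

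Of the glutamate genes, Slc1a3 was below its DMSO partner in each of the 3 pairs, by -0.22, -0.16 and -0.30 on the log2 scale. Its mean was 949 ± 588 CPM (SD, n = 3) under DMSO and 809 ± 505 CPM under GSK-126, and the fold change did not pass with either fit (edgeR adjusted p 0.954 with treatment alone and 0.257 with the block). Slc1a2 and Glul had log2 fold changes of -0.14 ± 0.208 and 0.10 ± 0.287. Their pairs were not all on one side.

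Vim and S100b, a calcium binding protein of astroglia, were higher under GSK-126 in each of the 3 pairs, and Gfap in 2 of 3. Vim stood at 1396, 914 and 1589 CPM under DMSO and at 1858, 1283 and 1830 CPM under GSK-126, a log2 fold change of 0.35 ± 0.245 (edgeR adjusted p 0.841, and 0.0728 with the block). S100b stood at 42.1, 26.3 and 50.7 CPM under DMSO and at 83.9, 38.0 and 57.8 CPM under GSK-126, a log2 fold change of 0.60 ± 0.317 (edgeR adjusted p 0.825, and 0.0737 with the block). The groups overlapped for both genes. With the block, DESeq2 called Vim (adjusted p 0.0126) and not S100b (0.0652), and edgeR without the libraries of number 3 called S100b (0.0273). Gfap had pair differences of 0.32, 0.30 and -0.11 and a log2 fold change of 0.18 ± 0.507 (edgeR adjusted p 0.966).

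**Figure D4:**
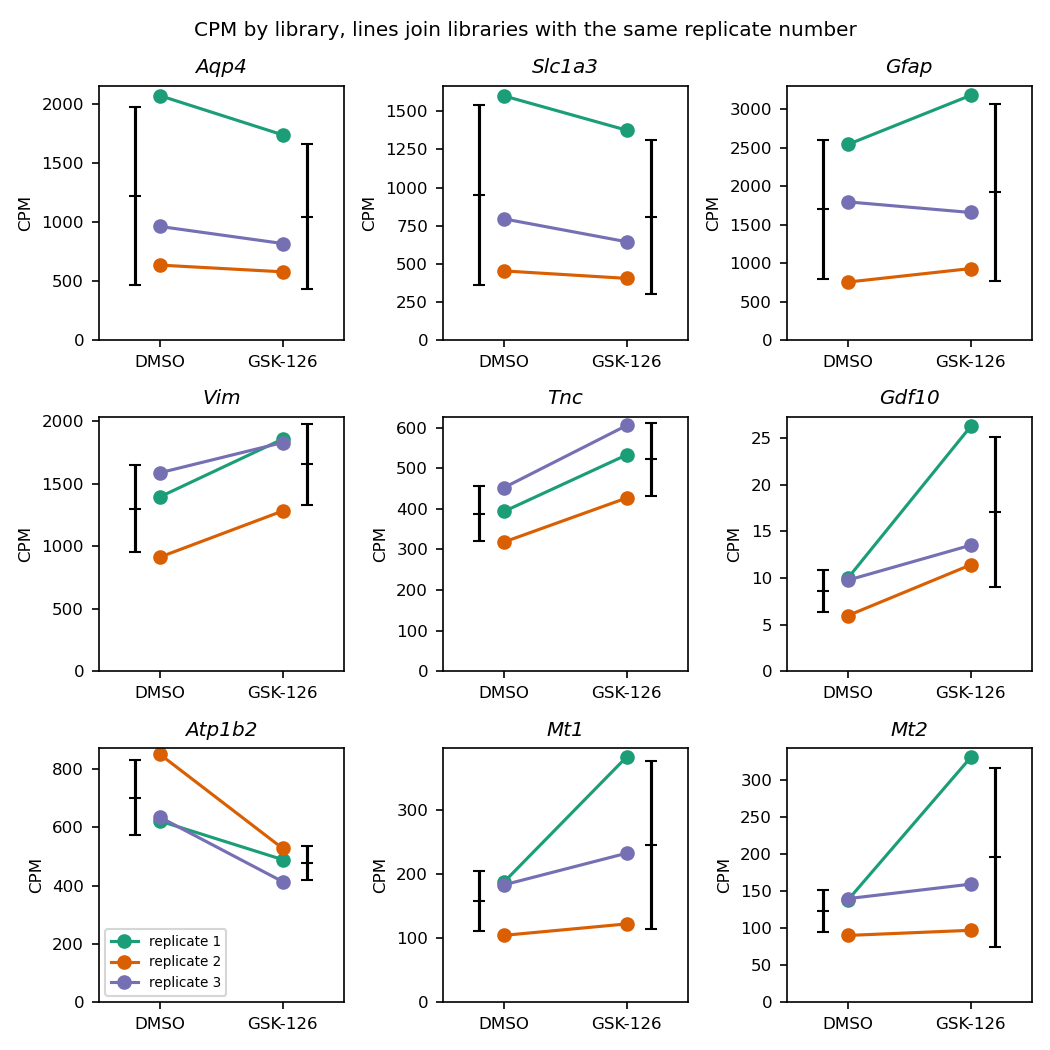
CPM (y axes, from 0) of 9 genes in each library, with lines joining the DMSO and GSK-126 libraries of one replicate number and bars at the side for the mean ± SD of each group of 3. All 3 lines fall for Atp1b2, Aqp4 and Slc1a3 and climb for Tnc, Gdf10, Vim, Mt1 and Mt2. For Aqp4, Slc1a3 and Gfap, the highest and lowest replicates of a group lie farther apart than the ends of any line.

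Tnc and Gdf10 were the 2 members that rose with the block. Tnc encodes tenascin C, an extracellular matrix glycoprotein made by Bergmann glia and immature astrocytes and also by fibroblasts, and lies at chr4:63959785-64047015 on the minus strand of GRCm38. It stood at 394, 318 and 452 CPM under DMSO and at 533, 427 and 605 CPM under GSK-126. The groups overlapped, but the pair differences were nearly equal, at 0.44, 0.42 and 0.42 on the log2 scale. The fold change was 0.43 ± 0.187 (edgeR adjusted p 0.825) with treatment alone and 0.43 ± 0.0961 (edgeR adjusted p 0.0348) with the block. It passed without the libraries of number 1 (adjusted p 0.0201) and not without those of number 2 (0.180) or of number 3 (0.252).

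Gdf10 lies at chr14:33923587-33937983 on the plus strand of GRCm38. Its level was 10.0, 5.98 and 9.78 CPM under DMSO and 26.2, 11.4 and 13.5 CPM under GSK-126. Each GSK-126 library was above every DMSO library, and the widest pair difference was that of replicate 1. The log2 fold change was 0.99 ± 0.362 (edgeR adjusted p 0.814) with treatment alone and 0.94 ± 0.227 (edgeR adjusted p 0.0459) with the block. The call was lost without the libraries of number 1 (adjusted p 0.187) or of number 2 (0.120), and DESeq2 with the block gave an adjusted p of 0.0615. Among the other receptors and secreted proteins, Ntsr2 was higher in each of the 3 pairs at 0.589 to 3.24 CPM over the 6 libraries. Clu was lower in each of them, by -0.22, -0.09 and -0.20. Cst3, Htra1 and Fgfr3 had log2 fold changes of 0.25 ± 0.240, -0.06 ± 0.234 and -0.21 ± 0.435, none of which passed.

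For the metabolic enzymes and lipid handling genes the median was -0.12 on the log2 scale with the block, and none of the 6 passed. Fabp7 stood at 695, 355 and 583 CPM under DMSO and at 692, 240 and 401 CPM under GSK-126, with pair differences of -0.01, -0.56 and -0.54 on the log2 scale. The first pair was almost level and the other two were lower. Without the libraries of number 1, Fabp7 passed with the block (edgeR adjusted p 0.00530), as did Ttyh1 (0.0487), and with all libraries they had 0.151 and 0.193. Ndrg2, an astrocyte-enriched gene, was also lower in each of the 3 pairs, at -0.23 ± 0.425 (edgeR adjusted p 0.939). Aldoc, Aldh1l1 and Acsbg1 were each higher in the pair of replicate 1 and lower in the other two. Hopx and Id4 likewise had pairs on both sides of 0, and their log2 fold changes were 0.19 ± 0.526 and 0.12 ± 0.456.

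**Figure D5:**
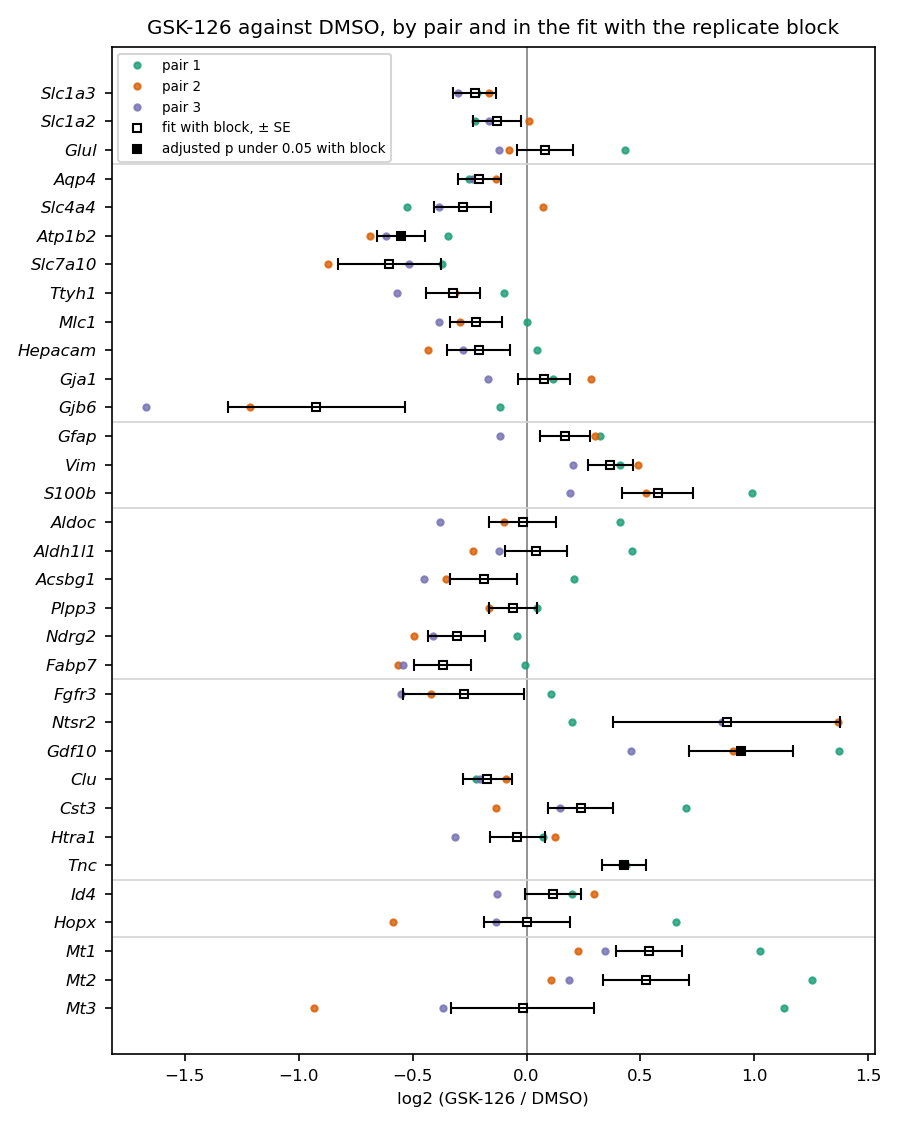
Log2 ratio of GSK-126 to DMSO (x axis) for the 33 genes tested, with a coloured point for each of the 3 pairs and a square ± SE for the fit with the replicate block, filled where the adjusted p was under 0.05. Filled squares mark Atp1b2 at -0.55, Gdf10 at 0.94 and Tnc at 0.43, and the other 30 squares are open.

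The metallothioneins Mt1 and Mt2 were highest in GSK-126 replicate 1. Mt1 stood at 188, 105 and 184 CPM under DMSO and at 383, 123 and 233 CPM under GSK-126, and Mt2 at 138, 90.5 and 140 CPM under DMSO and at 331, 97.4 and 160 CPM under GSK-126. Both were higher in each of the 3 pairs, by 1.03, 0.23 and 0.34 for Mt1 and by 1.26, 0.11 and 0.19 for Mt2 on the log2 scale, so most of the difference lay in the pair that held the deepest library. The log2 fold changes were 0.63 ± 0.386 and 0.67 ± 0.397 (edgeR adjusted p 0.839 for both, and 0.0743 and 0.186 with the block). Without the libraries of number 3 both passed with the block (0.0480 and 0.0333), without those of number 1 neither did (0.139 and 0.498), and DESeq2 with the block called Mt1 (0.0170) and not Mt2 (0.649). Mt3 had pair differences of 1.13, -0.93 and -0.37 and a log2 fold change of 0.04 ± 0.502 (edgeR adjusted p 0.993). Of the exon bases of Mt2, 73.5% lie opposite the antisense gene Gm45774, which held 1153, 756 and 1157 counts under DMSO and 3789, 777 and 1426 under GSK-126. Mt2 held 1204, 726 and 1190 counts under DMSO and 3985, 811 and 1407 under GSK-126, close to those of Gm45774 in each library. Since the strand setting used in counting is not given, the level of Mt2 is uncertain. How reads were divided between the 2 genes was not tested.

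Mt1 and Mt2 are neighbours on chromosome 8 with 5513 bases between them, and Mt3 lies 18517 bases before Mt2. Metallothionein promoters are known for metal response elements, short motifs bound by the zinc-dependent factor MTF1. Because Mt1 and Mt2 differed in the same direction in each pair, the 250 bases before the RefSeq start of each gene (GRCm38.p6) are given here, 5′ to 3′ on the plus strand, with capitals for the core letters TGCACNC or TGCGCNC on either strand. They span chr8:94178839-94179088 for Mt1 and chr8:94172368-94172617 for Mt2.
Mt1: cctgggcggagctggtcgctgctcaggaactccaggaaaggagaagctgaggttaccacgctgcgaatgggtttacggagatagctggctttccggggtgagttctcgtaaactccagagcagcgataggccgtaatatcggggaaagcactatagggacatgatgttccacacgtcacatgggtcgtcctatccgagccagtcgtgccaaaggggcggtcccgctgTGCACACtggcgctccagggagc
Mt2: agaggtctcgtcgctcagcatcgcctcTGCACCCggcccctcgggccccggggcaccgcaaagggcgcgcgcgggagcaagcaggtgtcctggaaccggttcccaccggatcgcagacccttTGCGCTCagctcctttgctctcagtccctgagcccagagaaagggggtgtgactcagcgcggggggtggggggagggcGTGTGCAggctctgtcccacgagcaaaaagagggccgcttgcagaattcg
The one match before the start of Mt1 begins 23 bases before it, and those of Mt2 begin 223, 128 and 50 bases before it. Mt1 has 2 further matches after the start, at bases 3 and 21, and Mt2 has 1, at base 5. These lie outside the printed bases. The start is the annotated one, and where transcription begins in these cultures was not tested. Over the window of 250 bases before to 50 after the start, Mt1 held 3 matches, Mt2 4 and Mt3 1. Of 32851 promoter windows of the same length, 25.7% held at least 1 match, 1.97% at least 3 and 0.517% at least 4. Promoter entries were found for 31 of the 34 members, and 11 of these (35.5%) held at least 1 match. A match of these letters is a description and not a site.

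Other genes of the same cells were read from lists of further astroglial, reactive and metal response genes. Of 39 other astroglia genes 38 were tested, 19 of which (50.0%) differed between replicate numbers, and their median log2 fold change under GSK-126 was -0.02. The most abundant of them, Sparc, Apoe and Sparcl1, are secreted proteins that other cells make too. With the block 2 of these genes rose, Dio2, the deiodinase that activates thyroid hormone in astrocytes, by 0.83 ± 0.171, and the transporting ATPase Atp13a4, by 1.25 ± 0.293 on the log2 scale (edgeR adjusted p 0.0243 and 0.0405). Dio2 stood at 12.7, 14.8 and 13.3 CPM under DMSO and at 23.8, 23.1 and 25.3 CPM under GSK-126. Its groups did not overlap, and unlike most astroglia genes it varied little between replicates.

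Of the 17 reactive astrocyte genes, 6 rose with the block and 0 fell, beside 2.23% and 1.42% of all genes. Their median log2 fold change was 0.34, and 11 of 17 were higher in each of the 3 pairs, beside 19.7% of all genes. With treatment alone 0 were called, and 5 had an unadjusted p under 0.05, beside 6.0% of all genes. The 6 were Lcn2, an iron-siderophore binding protein, the hyaluronan receptor Cd44, the oncostatin M receptor Osmr, the protease inhibitor Timp1, the lectin Lgals3 and the membrane protein Emp1. Microglia, fibroblasts or vascular cells also express several of these. Cd44 stood at 211, 118 and 186 CPM under DMSO and at 332, 185 and 272 CPM under GSK-126, with 0.61 ± 0.101 on the log2 scale (edgeR adjusted p 0.00918 with the block). Timp1 stood at 48.1, 66.2 and 66.9 CPM under DMSO and at 97.8, 102 and 99.0 CPM under GSK-126, so that its groups did not overlap (0.74 ± 0.124, edgeR adjusted p 0.0104 with the block). Lgals3 was far higher in replicate 3 than in the other replicates, at 32.4, 36.3 and 174 CPM under DMSO and at 102, 57.9 and 338 CPM under GSK-126. Of the 11 metal response genes 8 were tested, and with the block 2 rose, the zinc and manganese importer Slc39a14 by 0.52 ± 0.106 and the heme oxygenase Hmox1 by 0.84 ± 0.144 on the log2 scale (edgeR adjusted p 0.0221 and 0.0110). The zinc exporter Slc30a1, a textbook target of MTF1, is listed at 0 in all 6 libraries, and why was not tested.

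Markers of other cells moved with the treatment in the same libraries. Over all genes tested, 2.23% were called higher and 1.42% lower with the block. Microglia markers summed to 736, 548 and 1031 CPM under DMSO and to 1378, 710 and 1265 CPM under GSK-126, with 4 of 13 tested called higher with the block (among them C1qb, C1qc and Cd68), 0 lower, and Trem2 listed at 0. Endothelial and mural markers summed to 730, 926 and 1174 CPM and to 1378, 1269 and 1608 CPM, with 4 of 12 higher (Flt1, Pdgfrb, Acta2 and Tagln) and 0 lower. The sums of both lists were higher under GSK-126 in each of the 3 pairs. Fibroblast and meningeal markers summed to 6966, 6925 and 8931 CPM and to 9991, 8936 and 9917 CPM, and these sums were also higher under GSK-126 in each of the 3 pairs. Among the 9, Col1a1 and Igf2 were called higher and Slc6a13 lower with the block. Granule neuron markers had 8 of 14 lower with the block (Neurod1, Rbfox3, Etv1, Gabra6, Cbln1, Cbln3, Cadm3 and Snap25) and 0 higher. The median log2 fold change of the 14 was -0.52 with treatment alone and -0.55 with the block. Vim, Tnc, Cst3 and the reactive genes are expressed by some of these cells, and Atp1b2 by neurons. The part of these cells in the values of those genes was not tested.

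Among the remaining lists, the oligodendrocyte lineage, which summed to 1026, 647 and 989 CPM under DMSO and to 1156, 688 and 959 CPM under GSK-126, had 1 of 16 genes called higher, Cspg4, which mural cells also express. Its lowest sum was in replicate 2 in both groups, as for the astroglia genes. Cerebellar GABAergic neuron genes had 2 of 11 lower, among them Slc32a1, the vesicular GABA transporter. Of 22 cell cycle genes 0 were called with the block, and 0 had an unadjusted p under 0.05 with treatment alone. Their median log2 fold change was -0.00 with treatment alone.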

How the data were processed

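Poly(A) RNA-seq was performed on 6 libraries of mouse CGN cultures, for each of which the authors deposited raw counts by gene symbol, with neither normalization nor pooling. Per the labels and the study's methods, the authors trimmed reads with Trimmomatic 0.38, aligned them with STAR 2.7.2b to mm10 (GRCm38) and counted exons with HTSeq. From 39.1% to 41.6% of fragments were assigned to genes, and the 5 summary rows were left out. Groups and replicate numbers came from the sample titles. The 34 members and the other gene lists were chosen with earlier results of these data known. All members are named, and of other lists the genes called in either fit and the 3 highest by CPM where a cell type is described, except a few genes of other lists that are not reported here.

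Genes were filtered with filterByExpr by group, scaled with TMM and tested with edgeR 4.0.16 (quasi-likelihood F test, R 4.3.3) with Benjamini-Hochberg adjustment over 16343 genes and a threshold of 0.05. Treatment was the only term, since the study's methods state no others for DESeq2. The replicate number was added as a block because same-numbered libraries deviated together and a culture replicate came from pooled litters. The effect of the number was tested in that second fit. Pair ratios used log2 CPM with a prior count of 2. Coordinates and exon lengths came from GENCODE M21. DESeq2 1.42.0, RLE scaling, no filter, and leaving out libraries or pairs were alternatives. The fits were tested on simulated data. Multiply aligned reads were not assigned, so near-identical copies are undercounted.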

Additional observations from a re-analysis of the deposited data

How the results depend on the processing

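With treatment as the only term, 0 genes were called in either direction. With the replicate block 365 genes were higher and 232 lower, with DESeq2 34 and 15, with DESeq2 and the block 389 and 252, and with no filter 55 and 30. With the block and without both libraries of number 1 there were 396 and 308, of number 2 125 and 53, and of number 3 211 and 148. Members called were 2 higher and 1 lower with the block, and 3 and 1 with DESeq2 and the block. They were 1 and 3, 0 and 0, and 4 and 0 with the block and without number 1, 2 or 3, so the calls changed with the pairs kept. These fits held fewer libraries, which alone lowers the power to call a gene. In them the log2 fold change was 0.42, 0.44 and 0.43 for Tnc and -0.65, -0.46 and -0.52 for Atp1b2. For Gdf10 it was 0.68, 0.97 and 1.18. The cause of the lost calls was not tested. RLE scaling and leaving out any single library called 0 members.

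The members' median log2 fold change of -0.04 ran from -0.39 to 0.19 over the fits that left out single libraries. With the block it ran from -0.16 to 0.06 over the fits that left out both libraries of a number. The number of genes that differed between replicate numbers, 1890, was 3017 with no filter and ran from 840 to 3997 without single libraries. The count of members ran from 14 to 29.

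Fold changes of members that did not pass changed sign in some settings. With the replicate block Aldoc was -0.0173 and Mt3 -0.0174, and with DESeq2 and the block Aldoc was -0.0155, Hopx -0.0153 and Mt3 -0.0463. With the block and without number 1, Glul was -0.10, Aldoc -0.25, Aldh1l1 -0.17, Hopx -0.34 and Mt3 -0.61. Without number 2, Gja1 was -0.00797 and Plpp3 0.00609, and without number 3 Htra1 was 0.10. Without single libraries the log2 fold change ran, over the 6 fits, for Slc1a3 from -0.85 to 0.38, Slc1a2 from -0.30 to 0.10, Glul from -0.12 to 0.35, Aqp4 from -0.81 to 0.39, Mlc1 from -0.65 to 0.15, Hepacam from -0.70 to 0.22, Gja1 from -0.26 to 0.40, Gjb6 from -2.27 to 0.0382, Gfap from -0.39 to 0.60, Aldoc from -0.42 to 0.34. It likewise ran for Aldh1l1 from -0.37 to 0.51, Acsbg1 from -0.57 to 0.17, Plpp3 from -0.28 to 0.19, Ndrg2 from -0.80 to 0.13, Fabp7 from -0.76 to 0.00642, Fgfr3 from -0.72 to 0.0829, Htra1 from -0.25 to 0.12, Id4 from -0.41 to 0.55, Hopx from -0.45 to 0.61, Mt3 from -0.29 to 0.58. These 6 fits had treatment as the only term and left 1 library without its partner. With the block and without number 1, 2 or 3, the sign changes were those named above. Slc1a3 was then -0.23, -0.24 and -0.19, and Aqp4 -0.18, -0.23 and -0.19. The 3 members called with the block kept their direction in every setting run. Low counts limited what could be seen for Ntsr2, Gjb6 and Cldn10.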
